A study of Mus musculus with 10 samples.

Results

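The enzymes described here carry out the mevalonate pathway, from the condensation of acetyl-CoA to the prenyl diphosphates. They are Acat2, Hmgcs1, Mvk, Pmvk, Mvd, Idi1, Fdps and Ggps1, 8 genes taken by name from the 78317 genes of the deposited table, and all 8 were among the 15680 genes with a mean of at least 1 TPM (transcript abundance scaled for length and library total) that were tested. The RNA came from mouse medial prefrontal cortex, taken as punches 1 mm across that hold mixed cell types, and was sequenced from stranded poly(A) libraries. In 5 libraries, numbered 13, 14, 15, 17 and 18, the mice had received an adeno-associated virus (AAV) that overexpressed miR-130a-3p, and in 5 libraries, numbered 3, 4, 5, 7 and 9, a control AAV. All 10 are labelled wild type. The serotype and promoter of the virus, its dose, the time after injection, the age and sex of the mice and the number of mice per library are not given in the sources used here, and a p-value here reflects variation among these 10 libraries alone.

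The mevalonate pathway builds the isoprene unit, isopentenyl diphosphate, from acetyl-CoA. Farnesyl diphosphate then feeds the sterol branch, which leads to cholesterol, and the branches that make dolichol, ubiquinone and the lipid anchors of small GTPases. The brain makes its own cholesterol, because circulating lipoproteins hardly cross the blood-brain barrier, and both glia and neurons can do so. Transcription of many of these genes is raised by SREBP-2, a membrane-bound factor that is released when sterols in the endoplasmic reticulum run low.

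The overexpressed microRNA is shown first, since the design turns on it. Its seed, bases 2 to 8, is in capitals, and the sequence is from RefSeq on GRCm38.p6 (chr2:84741116-84741137, minus strand).
mmu-miR-130a-3p: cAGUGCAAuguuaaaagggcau
The heptamers searched were TTGCACT, which pairs with bases 2 to 8, and TGCACTA, whose first 6 bases pair with bases 2 to 7 and whose final A stands opposite base 1 without pairing. Neither was found in the longest annotated 3′ untranslated region of any of the 8 enzymes, on the sense strand (GENCODE M21, GRCm38). These regions ran in length from 55 bases in Fdps to 3035 bases in Ggps1. Of 13268 tested genes with such a region, 16% held at least 1 of these heptamers. The median length of those regions was 1225 bases. The regions of Acat2, Mvk, Pmvk, Mvd and Fdps were shorter than that, and the share was not matched for length.

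Upstream sequences are shown for 4 enzymes, which include the one with the largest change and the one with the smallest. Each run is the 250 bases before the RefSeq transcript start on GRCm38.p6, written along the gene's strand, and the enzymes matched the promoter table by symbol in 7 of 8 cases. Capitals mark TCACNCCAC, a form of the sterol regulatory element to which SREBPs bind, and CCAAT, the element of the factor NF-Y, each on either strand.
Hmgcs1 (chr13:119690101-119690350, plus strand): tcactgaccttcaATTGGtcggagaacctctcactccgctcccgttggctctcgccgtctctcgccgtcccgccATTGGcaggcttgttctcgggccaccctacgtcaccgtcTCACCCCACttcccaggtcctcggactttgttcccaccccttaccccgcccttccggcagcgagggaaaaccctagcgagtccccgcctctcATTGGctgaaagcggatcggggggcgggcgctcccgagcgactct
Mvd (chr8:122443423-122443672, minus strand): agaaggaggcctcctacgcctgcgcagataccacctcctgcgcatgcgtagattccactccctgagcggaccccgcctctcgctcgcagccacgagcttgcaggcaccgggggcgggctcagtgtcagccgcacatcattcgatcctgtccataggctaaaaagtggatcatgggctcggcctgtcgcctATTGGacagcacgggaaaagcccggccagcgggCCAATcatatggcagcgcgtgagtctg
Idi1 (chr13:8885356-8885605, plus strand): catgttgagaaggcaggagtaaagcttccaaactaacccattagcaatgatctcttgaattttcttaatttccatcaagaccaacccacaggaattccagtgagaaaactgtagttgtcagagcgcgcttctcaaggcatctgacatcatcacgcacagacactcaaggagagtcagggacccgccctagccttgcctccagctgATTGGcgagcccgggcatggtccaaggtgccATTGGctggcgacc
Ggps1 (chr13:14063489-14063738, minus strand): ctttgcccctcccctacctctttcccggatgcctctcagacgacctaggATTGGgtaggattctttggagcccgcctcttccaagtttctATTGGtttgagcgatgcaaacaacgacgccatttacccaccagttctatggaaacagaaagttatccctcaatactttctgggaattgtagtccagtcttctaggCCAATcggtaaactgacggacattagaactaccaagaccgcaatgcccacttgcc
Over the full windows, from 250 bases before to 50 after the start, TCACNCCAC occurred in Hmgcs1 and in no other of the 7 enzymes, against 1.24% of all 32851 windows. Pmvk has 2 windows, so the 7 enzymes have 8. CCAAT occurred in 6 of the 7 enzymes, Acat2 being the exception. By window it was in 6 of 8, against 37.4% of all windows. The count of CCAAT per window was 5 in Mvk, 4 in Hmgcs1, 3 in Ggps1 and 2 in both Mvd and Idi1. The hexamer GGGCGG was searched as well and is not marked above. It occurred in 5 of the 7 enzymes, Pmvk and Ggps1 being the exceptions. By window it was in 5 of 8, against 35.7% of all windows. Whether any of these motifs bears on the changes was not tested. The motifs searched do not overlap each other in these windows. Of 11 genes of the sterol branch with a window, 10 held CCAAT, 11 held GGGCGG and 0 held TCACNCCAC. Of their 13 windows, 10 held CCAAT and 12 held GGGCGG. These are matches of letters and not sites at which binding was measured.

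Transcripts of 5 of the 8 enzymes were higher in miR-130a libraries than in control libraries, 0 were lower, and 3 did not pass. The 5 were Hmgcs1, Idi1, Fdps, Acat2 and Mvd, with ratios of mean TPM between 1.55 and 2.13. Over all 15680 tested genes, 2.19% passed in the same direction (limma on log2(TPM + 1), Benjamini-Hochberg adjusted p under 0.05). The median log2 fold change of the 8 enzymes was 0.69, and that of all tested genes was −0.09. In 4 of the 8 every miR-130a library lay above every control library, a separation seen in 1.85% of all tested genes; in 0 of the 8 did every one lie below, against 9.46% of all tested genes. The number of reads behind a TPM value is unknown, and in tissue a change in the number of cells of a type cannot be told apart from a change in RNA per cell.

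**Figure D1:**
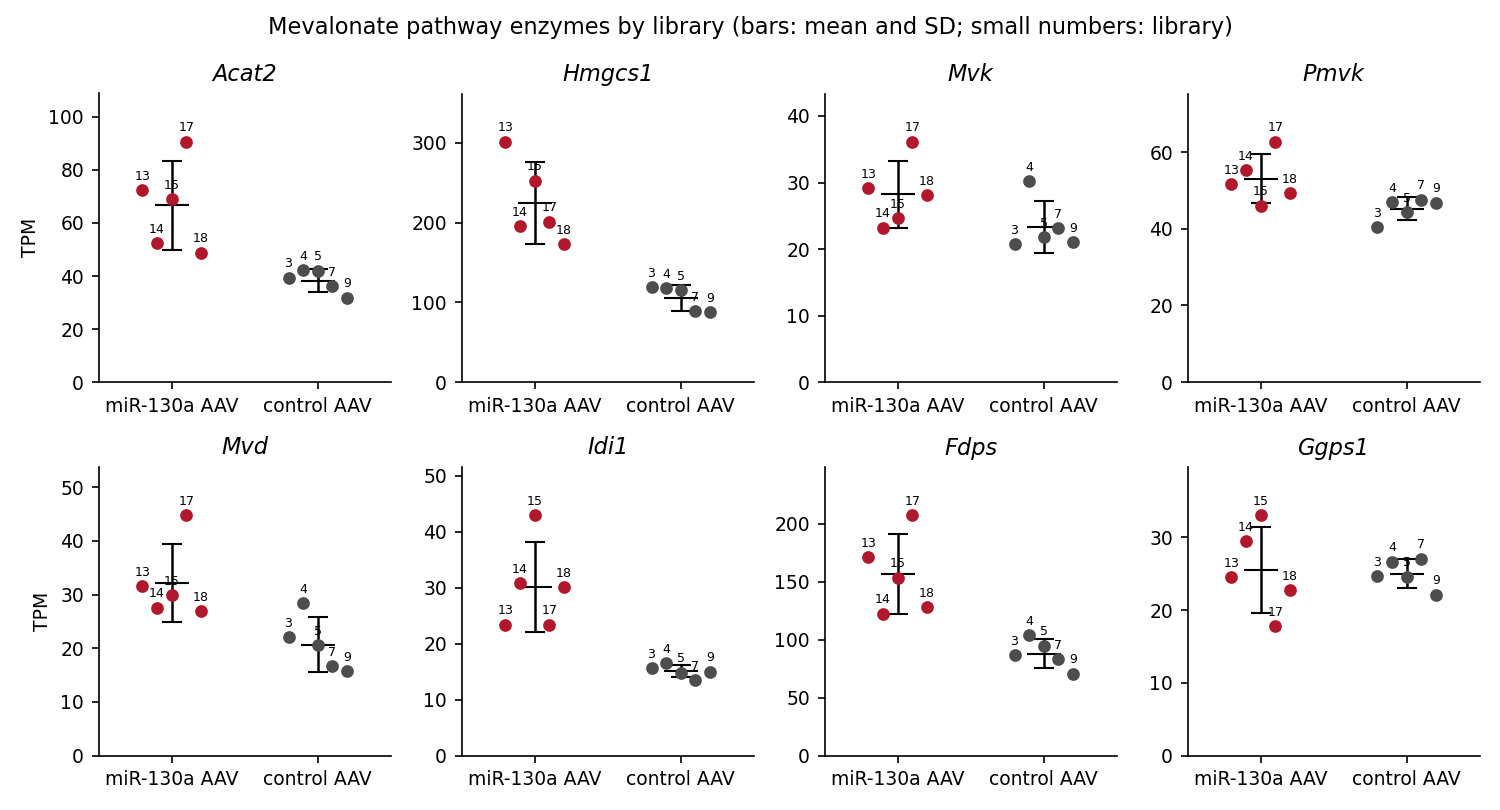
Deposited TPM of the 8 enzymes in each library, miR-130a AAV (red) left of control AAV (grey), with library numbers beside the points; horizontal and vertical bars are the mean and SD of 5 libraries. Acat2, Hmgcs1, Idi1 and Fdps show no overlap between the groups, while Mvk, Pmvk, Mvd and Ggps1 overlap.

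The first steps make HMG-CoA. Hmgcs1, the cytosolic synthase that joins acetyl-CoA to acetoacetyl-CoA, was at 301, 196, 252, 201 and 173 TPM in miR-130a libraries 13, 14, 15, 17 and 18, against 119, 118, 115, 89.0 and 87.4 TPM in control libraries 3, 4, 5, 7 and 9. Every miR-130a library was above every control library, with the highest value in library 13 and the lowest control values in libraries 7 and 9. The means were 224.6 ± 51.8 TPM in miR-130a and 105.6 ± 16 TPM in control libraries (SD, n = 5 each), a log2 fold change of 1.07 with a standard error of 0.16 (limma adjusted p = 0.00205). By size of increase it ranked 71st of all tested genes.

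Acat2, the cytosolic thiolase that makes acetoacetyl-CoA, was at 72.3, 52.5, 68.9, 90.7 and 48.8 TPM in the miR-130a libraries, against 39.3, 42.3, 42.0, 36.1 and 31.9 TPM in the control libraries, in the same order of libraries. The groups did not overlap, and the gap between the lowest miR-130a library, 18, and the highest control library, 4, was small beside the range of the miR-130a group. Acat2 rose to 66.6 ± 16.8 TPM in miR-130a libraries, against 38.3 ± 4.38 TPM in control libraries (log2 fold change 0.75, standard error 0.16, limma adjusted p = 0.0103). Acat3, a close relative of Acat2 on the same chromosome, was at 3.74 ± 0.31 TPM in miR-130a and 3.65 ± 0.85 TPM in control libraries and did not pass, and reads shared between such relatives make the split uncertain.

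The kinases in the middle of the pathway showed smaller differences that did not pass. Mvk, which phosphorylates mevalonate, was at 29.1, 23.2, 24.7, 36.1 and 28.1 TPM in miR-130a libraries, against 20.8, 30.2, 21.8, 23.2 and 21.1 TPM in control libraries. Only library 17 exceeded the highest control, library 4, and the ranges overlapped. The means were 28.2 ± 5.03 TPM in miR-130a and 23.4 ± 3.90 TPM in control libraries, with a log2 fold change of 0.26 and a 95% interval from −0.04 to 0.56 (limma adjusted p = 0.242). Pmvk, which adds the next phosphate, was at 51.7, 55.3, 46.0, 62.8 and 49.3 TPM in miR-130a libraries, against 40.4, 46.9, 44.4, 47.6 and 46.8 TPM in control libraries. Here 4 of the 5 miR-130a libraries lay above every control, and library 15 lay within the control range. Pmvk had the least spread among the 8, with coefficients of variation of 12.1% in miR-130a and 6.55% in control libraries. Its log2 fold change of 0.22 had a 95% interval from 0.01 to 0.43, and it did not pass after adjustment over all genes (limma adjusted p = 0.160).

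Mvd, which decarboxylates mevalonate diphosphate to isopentenyl diphosphate, was at 31.5, 27.6, 29.9, 44.8 and 26.9 TPM in miR-130a libraries, against 22.1, 28.4, 20.5, 16.7 and 15.8 TPM in control libraries. Libraries 14 and 18 lay below control library 4, so the ranges overlapped. The means were 32.1 ± 7.32 TPM in miR-130a and 20.7 ± 5.04 TPM in control libraries, and the log2 fold change of 0.62 had a standard error of 0.17 (limma adjusted p = 0.0377). This call was the weakest of the 5. It was lost on leaving out any 1 of 8 libraries, namely control libraries 3, 5, 7 and 9 and miR-130a libraries 13, 14, 15 and 17, with limma adjusted p-values over the 10 omissions from 0.0164 to 0.0970. It was also lost without control libraries 7 and 9 together, where the log2 fold change was 0.41 (limma adjusted p = 0.126). The protein-coding model Gm20388, which has no deposited value, overlaps Mvd on the opposite strand in the annotation.

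The later steps use the isoprene units. Idi1, which converts isopentenyl to dimethylallyl diphosphate, was at 23.4, 30.8, 42.9, 23.4 and 30.1 TPM in miR-130a libraries, against 15.6, 16.5, 14.8, 13.5 and 15 TPM in control libraries. The controls lay close together and all miR-130a libraries were above them, by most in library 15. Idi1 rose to 30.1 ± 7.99 TPM in miR-130a libraries, against 15.1 ± 1.11 TPM in control libraries (log2 fold change 0.92, standard error 0.15, limma adjusted p = 0.00326). Its coefficient of variation was 26.5% in miR-130a and 7.36% in control libraries. Of 5 pseudogenes of Idi1 in the table, 0 had a mean above 1 TPM.

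Fdps, the synthase of geranyl and farnesyl diphosphate, was at 171, 123, 154, 208 and 128 TPM in miR-130a libraries, against 86.4, 103.8, 94.9, 83.2 and 70.6 TPM in control libraries. Again the groups did not overlap, and library 17 was highest. The means were 156.6 ± 34.6 TPM in miR-130a and 87.8 ± 12.5 TPM in control libraries (log2 fold change 0.81, standard error 0.15, limma adjusted p = 0.00581). In the annotation the protein-coding model Gm43738 overlaps Fdps on the same strand. It has no deposited value, so how reads shared between them were assigned is unknown.

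Ggps1, which extends farnesyl to geranylgeranyl diphosphate for the anchors of Rab proteins, was at 24.5, 29.4, 33.0, 17.8 and 22.8 TPM in miR-130a libraries, against 24.6, 26.7, 24.6, 27.1 and 22.1 TPM in control libraries. Libraries 14 and 15 lay above all controls and library 17 below all of them. The means were 25.5 ± 5.93 TPM in miR-130a and 25.0 ± 1.99 TPM in control libraries. The log2 fold change was 0.001 with a 95% interval from −0.32 to 0.32 (limma adjusted p = 0.997). A change within that interval, in either direction, was therefore not excluded by these libraries. The start of Ggps1 overlaps Arid4b on the opposite strand in the annotation. Arid4b was at no more than 9.82 TPM.

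Whether the other enzymes changed by a different amount from Hmgcs1 was tested. The log2 value of Hmgcs1 in the same library was subtracted from every gene before the fit. Hmgcs1 had the largest rise among the enzymes, so the differences given here were negative by that choice. The other enzymes were not tested against each other. Ggps1, Pmvk and Mvk changed less than Hmgcs1, by −1.06, −0.85 and −0.81 on the log2 scale (limma adjusted p = 0.000122, 0.00109 and 0.00159). Mvd also differed, by −0.45 with a 95% interval from −0.87 to −0.03 (limma adjusted p = 0.0389). For Acat2 the difference was −0.31 with a 95% interval from −0.69 to 0.06, for Fdps −0.25 from −0.63 to 0.12, and for Idi1 −0.14 from −0.60 to 0.31, and none of these passed (limma adjusted p = 0.0998, 0.173 and 0.516). Hmgcs1 was itself near the top of all genes, and 96.3% of the 15679 other genes differed from it in this test, so the adjustment hardly moved these p-values. The call of Mvd was lost in 10 of the 21 alternatives, among them the omission of control library 3, 4 or 7 and of miR-130a library 13, 14 or 15 (limma adjusted p from 0.0537 to 0.102). Without miR-130a library 17, Acat2 and Fdps passed as well (limma adjusted p = 0.0130 and 0.0322).

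The order of the levels, which TPM scales by transcript length, differed between the groups. By mean in miR-130a libraries it ran Hmgcs1, Fdps, Acat2, Pmvk, Mvd, Idi1, Mvk and Ggps1. In control libraries it ran Hmgcs1, Fdps, Pmvk, Acat2, Ggps1, Mvk, Mvd and Idi1. The last 4 of each order are close, and the ranges of neighbours among them overlapped in both groups. Acat2 exceeded Pmvk in 3 of 5 miR-130a libraries and in 0 of 5 control libraries. Idi1 was the lowest of the 8 in 1 miR-130a library and in 5 control libraries. Hmgcs1 was highest in 4 of 5 miR-130a libraries, with Fdps above it in library 17, and in 5 of 5 control libraries.

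The summed TPM of the 8 enzymes ranged from 506.8 to 705 in miR-130a libraries and from 310.6 to 412 in control libraries. Hmgcs1 and Fdps made up most of that sum in every library. The share of Ggps1 was 4.22% ± 1.2 in miR-130a and 6.96% ± 0.661 in control libraries (SD, n = 5 each), without overlap. The ratio of Hmgcs1 to Ggps1 lay between 6.64 and 12.3 in miR-130a and between 3.29 and 4.83 in control libraries. The ratio of Acat2 to Fdps, by contrast, stayed between 0.381 and 0.449 in miR-130a and between 0.407 and 0.455 in control libraries.

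**Figure D2:**
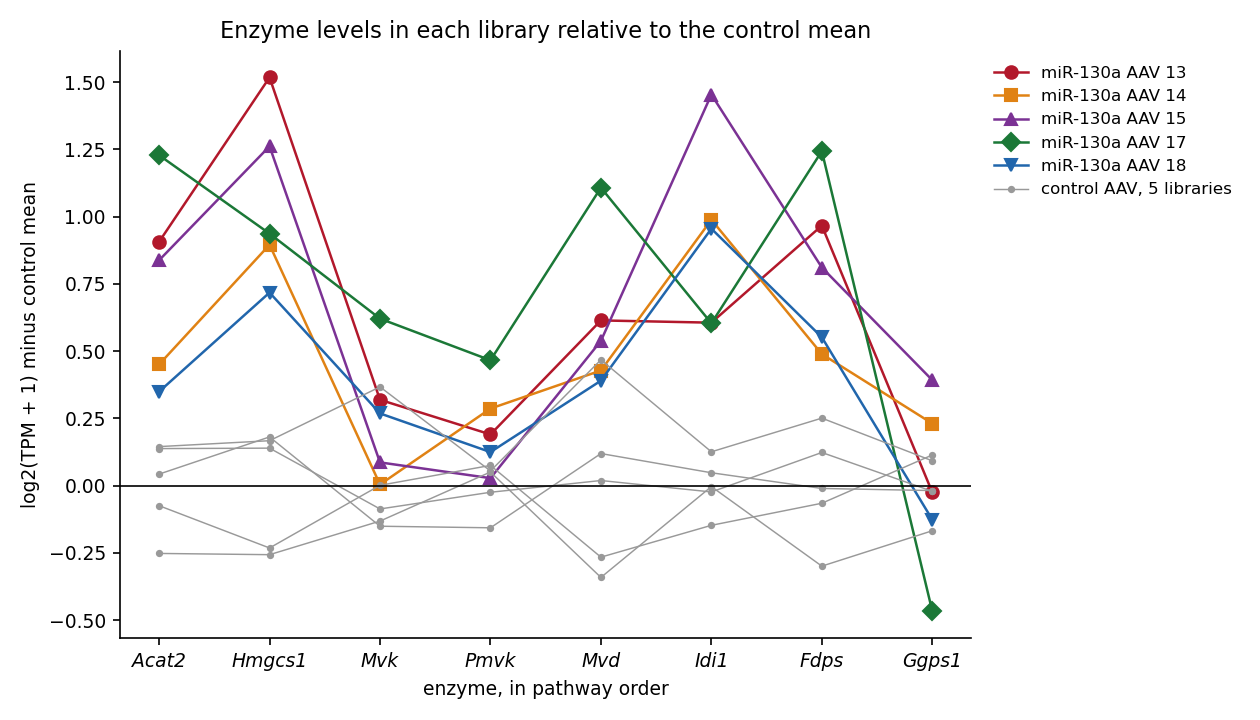
Each line is 1 library and shows the log2(TPM + 1) of the enzymes, in pathway order, minus the mean of the 5 control libraries; miR-130a libraries are coloured and control libraries grey. Library 17 stands highest for Acat2, Mvk, Pmvk, Mvd and Fdps and lowest for Ggps1, and library 15 highest for Idi1 and Ggps1.

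Within the miR-130a group the enzymes did not share 1 order of libraries, as the profiles by library show. Library 17 was the highest of its group for 5 enzymes, Acat2, Mvk, Pmvk, Mvd and Fdps, and the lowest for Ggps1 and, level with library 13, for Idi1. Library 15 was the highest for Idi1 and Ggps1, and library 13 for Hmgcs1. Among controls, library 9 was the lowest for 5 enzymes, Acat2, Hmgcs1, Mvd, Fdps and Ggps1, and library 4 the highest for 5. With the group means removed, the correlation of an enzyme with the mean of the other 7, over 10 libraries that share 1 tissue and scaling, was 0.83 for Fdps, 0.78 for Mvd and 0.75 for Acat2. It was 0.49 for Mvk, 0.41 for Hmgcs1 and 0.01 for Pmvk, and negative for Idi1 at −0.20 and Ggps1 at −0.36. These are descriptions over few libraries.

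The genes whose log2 values were most like the mean standardised profile of the 8 enzymes over the 10 libraries were Pnck, a protein kinase related to the calcium/calmodulin-dependent kinases, with a Pearson correlation of 0.98, Tm7sf2 and Msmo1 with 0.97 each, and Fdft1, Ociad2, Nsdhl, Rab26 and Arl3 with values between 0.950 and 0.965. Predicted and clone-named models were left out of this ranking. The difference between the groups contributes to these values. With group means removed, they were 0.89 for Pnck, 0.84 for Tm7sf2, 0.82 for Msmo1, 0.89 for Fdft1 and 0.79 for Nsdhl. The lowest were 0.78 for Ociad2, 0.78 for Rab26 and 0.76 for Arl3. Of these 8 genes, Tm7sf2, Msmo1, Fdft1 and Nsdhl are enzymes of the sterol branch.

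In the sterol branch, which takes farnesyl diphosphate to cholesterol, 8 of 14 genes were higher in miR-130a libraries, 0 were lower and 6 did not pass, where 2.19% of all tested genes were higher. The median log2 fold change was 0.54, against −0.09 over all tested genes. Of the 8, Sc5d, a late desaturase, was lost without control library 3 or 7 or miR-130a library 13 (limma adjusted p = 0.0556, 0.0686 and 0.0633). It was also lost with no filter and without control libraries 7 and 9 together (limma adjusted p = 0.0537 and 0.0741). The count higher was 7 in each fit where Sc5d was lost. It was 10 with median-ratio scaling and with quantile normalization, and 9 without control library 5. Msmo1, which removes the methyl groups at carbon 4 of the sterol ring, was at 114, 89.7, 121, 130 and 94.3 TPM in miR-130a libraries, against 43.3, 54.5, 54.3, 46.3 and 44.8 TPM in control libraries, and its groups lay far apart. It had the largest change of the list, with a log2 fold change of 1.15 (limma adjusted p = 0.000607). Tm7sf2, a sterol reductase, rose to 25.8 ± 4.99 TPM in miR-130a libraries, against 13.1 ± 2.55 TPM in control libraries (0.92, limma adjusted p = 0.00339). Nsdhl, which acts with Msmo1, rose by 0.74 and Cyp51, the lanosterol demethylase, by 0.57 on the log2 scale (limma adjusted p = 0.00670 and 0.00861).

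Of other genes with related reactions, the mitochondrial thiolase Acat1 was at 41.7 ± 3.24 TPM in miR-130a and 37.7 ± 2.14 TPM in control libraries and was not called (limma adjusted p = 0.302). Idi2, the second isomerase gene, did not reach 0.1 TPM in any library.

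In the isoprenoid branch, which makes dolichol, ubiquinone and prenylated proteins, 0 of 15 genes were higher, 1 was lower and 14 did not pass, with a median log2 fold change of −0.11. Lower calls made up 11.3% of all tested genes. The gene called was Srd5a3, a reductase of dolichol synthesis, at 17.1 ± 1.5 TPM in miR-130a and 22.5 ± 2.21 TPM in control libraries (log2 fold change −0.37, limma adjusted p = 0.0249). With median-ratio or quantile scaling it did not pass (limma adjusted p = 0.0670 and 0.113), nor without control library 4 or 5 or miR-130a library 18 (limma adjusted p = 0.0531, 0.0509 and 0.0559). Nus1, a subunit of the dolichol-forming prenyltransferase, was at 24.2 ± 5.0 TPM in miR-130a and 17.5 ± 1.05 TPM in control libraries without reaching the threshold (0.42, limma adjusted p = 0.0552). Under the same 2 scalings Nus1 passed (limma adjusted p = 0.0167 and 0.0106), and the list then held 2 higher and 0 lower genes. In all, Nus1 passed in 6 of the 21 alternatives. Without control library 9 the list held 1 higher and 3 lower genes, and rescaled to protein-coding genes 1 higher and 2 lower. Coq2, the prenyltransferase of ubiquinone synthesis, and Fnta, the shared subunit of the protein prenyltransferases, did not pass, at −0.30 and −0.20 (limma adjusted p = 0.0573 and 0.163). Coq2 passed in 3 of the 21 alternatives and Fnta in 1.

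Among 17 genes of sterol sensing, uptake and export, 2 were higher, 6 were lower and 9 did not pass, where 2.19% of all tested genes were higher and 11.3% lower. The median log2 fold change of the list was −0.42. Srebf2, the gene of SREBP-2, was at 123, 116, 124, 154 and 125 TPM in miR-130a libraries, against 119, 154, 157, 117 and 78.8 TPM in control libraries. The control libraries spanned all the miR-130a values, and the transcript did not pass (log2 fold change 0.07, limma adjusted p = 0.831). Insig1, which holds the SREBP complex in the endoplasmic reticulum and is itself induced by SREBPs, rose to 58.9 ± 11.5 TPM in miR-130a libraries, against 33.0 ± 4.07 TPM in control libraries (0.81, limma adjusted p = 0.00339). Stard4, a sterol carrier, was the other gene called higher.

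Genes of export were among those lower. Abca1, a cholesterol exporter, fell to 3.84 ± 0.845 TPM in miR-130a libraries, against 10.6 ± 1.97 TPM in control libraries (log2 fold change −1.26, limma adjusted p = 0.000927). Its partner Abcg1 fell to 13.2 ± 2.27 TPM in miR-130a libraries, against 22.6 ± 1.64 TPM in control libraries (−0.74, limma adjusted p = 0.00282). Srebf1, the gene of SREBP-1, fell to 22.8 ± 4.31 TPM in miR-130a libraries, against 36.0 ± 1.67 TPM in control libraries (−0.66, limma adjusted p = 0.00576). The other 3 lower genes were Mylip, Nr1h2 and Npc2, and Nr1h2 did not pass in 12 of 21 alternatives. The count lower in this list was 5 with median-ratio scaling and 4 with quantile normalization. It was 7 when TPM was rescaled to protein-coding genes, and 8 without control library 9, alone or together with control library 7.

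**Figure D3:**
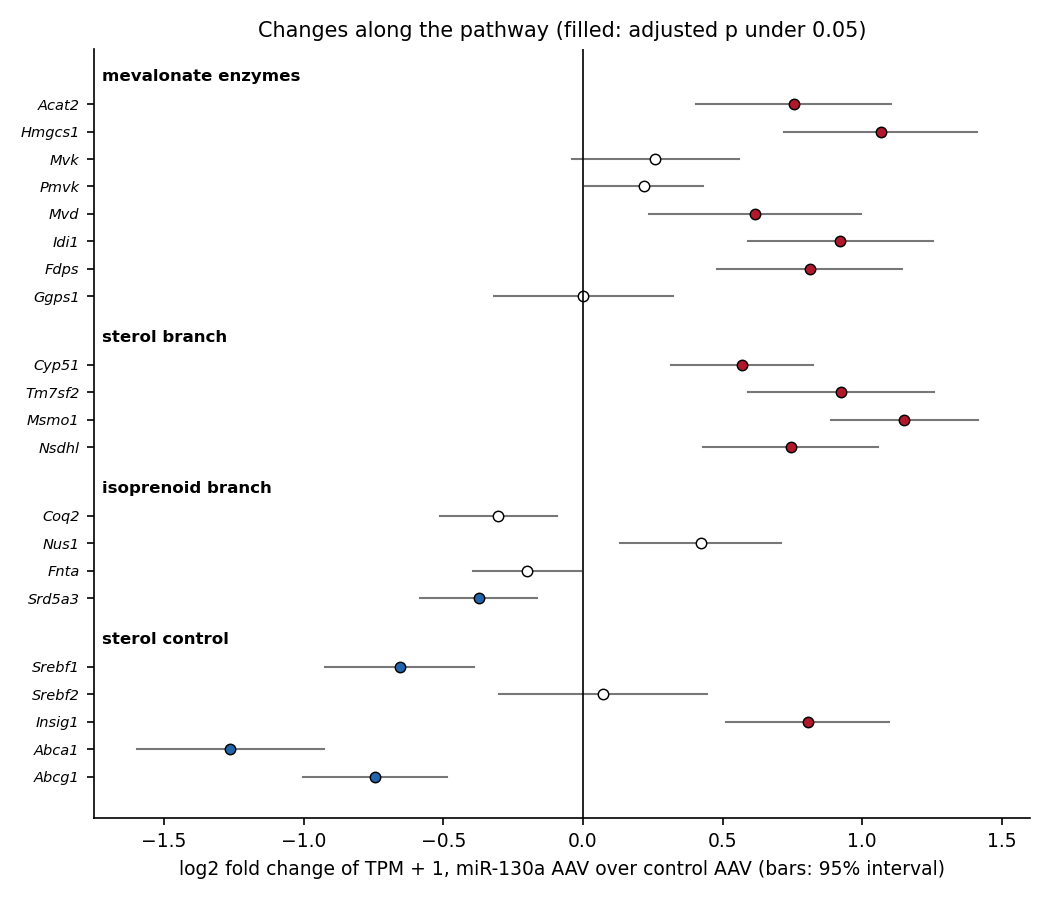
Log2 fold changes of TPM + 1, miR-130a AAV over control AAV, with 95% intervals from limma for the 8 enzymes, the 4 genes of lowest p in each of 3 lists, and Srebf2; filled points passed an adjusted p of 0.05, red for higher and blue for lower. Of the 8 enzymes, 5 are filled red, and the filled point of the isoprenoid branch is Srd5a3 in blue, which did not pass with median-ratio or quantile scaling.

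Markers of cortical cells were present: the 6 excitatory neuron markers summed to between 3440 and 4604 TPM in miR-130a and between 3157 and 6037 TPM in control libraries, with 0 of 6 called. The 3 choroid plexus markers never exceeded 1.36 TPM. The 5 striatal markers summed to between 87.0 and 115 TPM in miR-130a and between 87.5 and 133 TPM in control libraries, most of it Ppp1r1b, and 1 of them, Adora2a, was lower (limma adjusted p = 0.0413). With median-ratio scaling, with quantile normalization and without a filter, 0 of the 5 were lower. The call was also lost without control library 4, 5, 7 or 9, and without miR-130a library 13, 14, 15 or 17. Omitting control libraries 7 and 9 together, rescaling without mitochondrially encoded genes and the oligodendrocyte score as a covariate removed it as well. In oligodendrocytes, which make much cholesterol for myelin, 0 of 8 markers were called, and their sums ran from 1321 to 3701 TPM in miR-130a and from 2139 to 3830 TPM in control libraries. For astrocytes 0 of 7 were called, with sums from 4632 to 7275 TPM in miR-130a and from 5736 to 11720 TPM in control libraries. Apoe made up most of these astrocyte sums. Microglial markers moved with the groups: 6 of 7 were lower, or 5 of 7 in 11 of the 21 alternatives, where 11.3% of all tested genes were lower, and the sums did not overlap, at 437 to 628 TPM in miR-130a and 1075 to 2070 TPM in control libraries. The 4 endothelial markers were all lower, with sums of 83.8 to 114 TPM in miR-130a and 127 to 148 TPM in control libraries. Of these 4, 2 were called lower with quantile normalization and with an oligodendrocyte score as a covariate, and 3 in 7 other alternatives, among them the omission of control library 7 and of miR-130a library 13, 14 or 15. Of 6 inhibitory neuron markers, Sst and Vip were higher, where 2.19% of all tested genes were higher. Gad1, Gad2, Slc32a1 and Pvalb did not pass (limma adjusted p = 0.63, 0.317, 0.952 and 0.352). The 6 summed to 1254 to 1640 TPM in miR-130a and 893 to 1135 TPM in control libraries. Most of that was Sst, with means of 1070 TPM in miR-130a and 645 TPM in control libraries. In 9 of the 21 alternatives only 1 of the 6 was higher, among them the omission of control library 4, 5 or 7 and of miR-130a library 13, 14, 15 or 18, and without miR-130a library 17 it was 3. None of these markers was at 0 in all libraries, and the part of cell composition in the changes of the enzymes was not tested. Only an oligodendrocyte score, from a list with 0 of 8 markers called, was used as a covariate. No score of the microglial or endothelial markers, which were lower, was fitted. With the oligodendrocyte score, Hmgcs1, Idi1, Fdps and Acat2 passed and Mvd did not (limma adjusted p = 0.0803). The log2 fold change of Mvd was 0.62 with and without the covariate.

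Mitochondrially encoded genes took 16% to 19.9% of TPM in miR-130a and 13% to 16.4% in control libraries, so scaling was varied. The median log2 fold change over all genes was −0.09 as deposited, 0.01 with median-ratio scaling and 0.05 with quantile normalization. The calls split into 343 higher and 1767 lower as deposited, 866 and 1198 with median-ratio scaling, and 1071 and 1046 with quantile normalization. The same 5 enzymes passed as higher under these 2 scalings and when TPM was rescaled to protein-coding genes or without mitochondrially encoded genes. Relative to all genes, the median of the 8 enzymes was 0.78 as deposited, 0.79 with median-ratio scaling and 0.75 with quantile normalization.

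**Figure D4:**
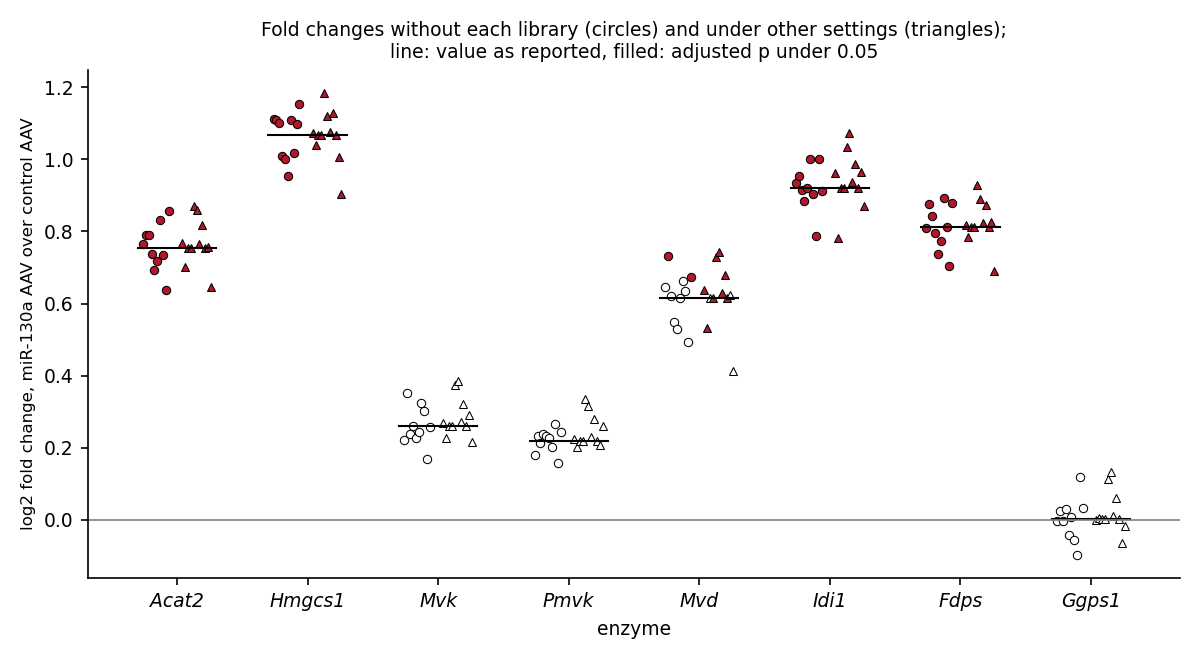
Log2 fold change of each enzyme without each library in turn (circles) and under 11 other settings (triangles), with a line at the value as reported; filled points passed an adjusted p of 0.05. Acat2, Hmgcs1, Idi1 and Fdps were filled throughout, Mvd in 10 of 21 points, and Mvk, Pmvk and Ggps1 in none.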

How the data were processed

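Per the labels' protocols, stranded poly(A) libraries were made from tissue punches. The tools named in the submitters' processing notes are RSEM, HISAT2, fastp and DESeq2, and the build is GRCm39; versions and roles are not given in the sources used here. The authors deposited TPM per gene and library, which keeps no depth, so no counting intervals were computed and no count model was used. The 2 columns of group means were not used. Values were analysed as log2(TPM + 1), which understates changes of weakly expressed genes. Genes with a mean of at least 1 TPM were compared with limma 3.58.1 (trend) in R 4.3.3, 5 against 5 libraries, 2-sided, without covariates, adjusted by Benjamini-Hochberg over all 15680 genes at 0.05. Python 3.11.15 with pandas 2.3.3 and matplotlib 3.10.9 served for the rest. The enzymes and lists were chosen with earlier results of these data known. All 8 enzymes, the up to 4 genes of lowest p in each list, Srebf2 and the 8 genes of most similar pattern were named by rule. Acat3, Idi2, Sc5d, Stard4, Mylip, Nr1h2 and Npc2 were named after their values were seen. Some genes of the lists are not reported here. Controls carry the lower library numbers and miR-130a libraries the higher ones, and an effect of processing order cannot be told apart from that of the virus.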

Additional observations from a re-analysis of the deposited data

Results flagged for a closer look

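Among 52 groups of 5 libraries examined for a value far from the others, 4 stood out, and about 1 in 20 would by chance. Mvd was at 44.8 TPM in miR-130a library 17, where the next value was 31.5 TPM. Srebf2 was at 154.35 TPM in the same library, with the next at 125.1 TPM. Mvk was at 30.2 TPM in control library 4, with the next at 23.2 TPM. Acat1 was at 41.4 TPM in control library 5, with the next at 37.2 TPM.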

How the results depend on the processing

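Of 21 alternatives, 10 left out 1 library each and 11 changed another choice. Acat2, Hmgcs1, Idi1 and Fdps passed in all 21, with log2 fold changes from 0.64 to 0.87, 0.90 to 1.18, 0.78 to 1.07 and 0.69 to 0.93. Mvk and Pmvk passed in 0 and stayed positive, while Ggps1, also called in 0, lay between −0.10 and 0.13. The count of enzymes higher was 4 or 5 throughout, since Mvd was lost without a filter (limma adjusted p = 0.0981), with the oligodendrocyte score, and in the omissions named above. Over all tested genes the count of calls was 2110, but 1302 without a filter and 1229 with the oligodendrocyte score as a covariate, and 1228 to 3413 when single libraries were left out; the cause was not tested. Omitting control library 7 gave 1228 and control library 9 gave 3413 calls; omitting libraries 14 and 13 of the miR-130a group gave 1278 and 1313. No paired analysis was possible because the groups share no library numbers. TPM gives no depth, so precision rests on 5 libraries per group.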
